A study of Canis lupus familiaris with 12 samples.

Results

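CTBS encodes chitobiase (di-N-acetylchitobiase), a lysosomal glycosidase, and was examined here beside 7 other genes of lysosomal glycan breakdown, AGA, HEXA, GLB1, MANBA, MAN2B1, FUCA1, and NEU1. The 8 genes were taken by name from the 13672 genes of a normalised RNASeq table, and all 8 were among the 12650 genes tested, which had more than 1 CPM (counts per 1e6 reads) in at least 3 libraries. CTBS was chosen by its low level in all 3 knock-out (KO) lines of the study, so its difference from WT is a description and carries no test. The question was how the other 7 genes, other lysosomal and related genes, and the genes next to CTBS behaved in the same libraries, and whether CTBS itself differed between the KO lines.

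The libraries came from MDCKII cells, an epithelial line from dog kidney, and comprised 4 untreated genotypes with 3 libraries each. WT cells carried no edit. CGN-KO cells (clone 1G8) lacked cingulin (CGN), a cytoplasmic protein of tight junctions. CGNL1-KO cells (clone 22) lacked its paralog paracingulin (CGNL1), found at tight and adherens junctions, and CGN-CGNL1 double-KO cells (clone 21D3) lacked both. The edits were made by CRISPR/Cas9, and each KO genotype is 1 line, so genotype and line cannot be told apart. The labels number the libraries of a genotype but do not say what a number stands for. p-values therefore measure only the spread between these libraries, which may be technical.

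Lysosomal glycosidases remove sugars one after the other from the glycans of proteins and lipids that reach the lysosome. In the breakdown of N-linked glycans, fucosidase, sialidase, galactosidase, hexosaminidase, and mannosidases trim the chain from its outer end, while aspartylglucosaminidase and chitobiase act at the end that had been joined to the protein. Aspartylglucosaminidase (AGA) cuts the bond to asparagine, and chitobiase then splits the pair of N-acetylglucosamines at the core. Many genes for lysosomal enzymes share control by the transcription factor TFEB and its relatives.

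The libraries held 16837532 to 30086076 reads. CGN was at 199 to 233 CPM in WT, 47.0 to 56.5 in CGN-KO, 198 to 213 in CGNL1-KO, and 39.7 to 45.3 in double-KO cells. CGNL1 was at 7.74 to 12.3 CPM in WT, 5.04 to 6.92 in CGN-KO, 1.76 to 3.02 in CGNL1-KO, and 1.11 to 1.76 in double-KO cells, so each targeted gene was lowest where the labels place its loss. Markers of kidney epithelium were listed for 6 of 6 genes, with summed levels of 5092 to 5544 CPM over the 12 libraries. The sum came mostly from KRT8, KRT18, CDH1, and EPCAM, and PAX8 was at 84.3 to 115 CPM. CDH16 was low, at 0.828 to 5.14 CPM. Its mean lay below that of the fibroblast marker PDGFRA in each genotype (1.45 to 3.43 against 4.05 to 7.91 CPM). Of the markers of other cell types, 1 of 4 for fibroblasts (at most 11.1 CPM), 2 of 4 for endothelium (0.690 to 2.98 CPM summed), and 1 of 4 for leukocytes (0.560 to 1.34 CPM) were listed.

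In WT cells CTBS was at 14.1, 15.6, and 14.2 CPM, which rested on 240, 283, and 297 reads. In CGN-KO cells it was at 2.21, 1.43, and 1.59 CPM, from 67, 29, and 27 reads. In CGNL1-KO cells it was at 2.21, 2.35, and 2.57 CPM, from 38, 52, and 48 reads. In double-KO cells it was at 1.31, 1.14, and 0.872 CPM, from 23, 28, and 18 reads. All 9 KO values lay far below the 3 WT values, and the double-KO libraries were the lowest of all.

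The mean CTBS level was 14.7 ± 0.840 CPM in WT, whereas CGN-KO cells had 1.75 ± 0.410, CGNL1-KO cells 2.37 ± 0.183, and double-KO cells 1.11 ± 0.220 (SD, n = 3 each). CGN-KO cells thus held 11.9%, CGNL1-KO cells 16.2%, and double-KO cells 7.55% of the WT mean. On the log2(CPM + 1) scale, which understates changes of genes with few reads, the differences from WT were −2.52, −2.21, and −2.90 (SE 0.13 each). By these values CTBS stood at place 2 for CGN-KO, place 3 for CGNL1-KO, and place 3 for double-KO cells, counted from the most lowered of 12650 genes. It was among 11 genes at least 2-fold lower in all 3 lines, by a rule that also asked an adjusted p below 0.05 (limma) in each. CTBS was picked for this fall, so its ranks and its place among the 11 are a description and no test of it. The 3 comparisons share the WT libraries. Ordered by the smallest of the 3 differences, the last of these 11 genes was PRDM16 (−1.02), and the first gene outside was BBOF1 (−0.98). In a bulk library, fewer cells with a transcript and fewer transcripts per cell cannot be told apart.

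**Figure D1:**
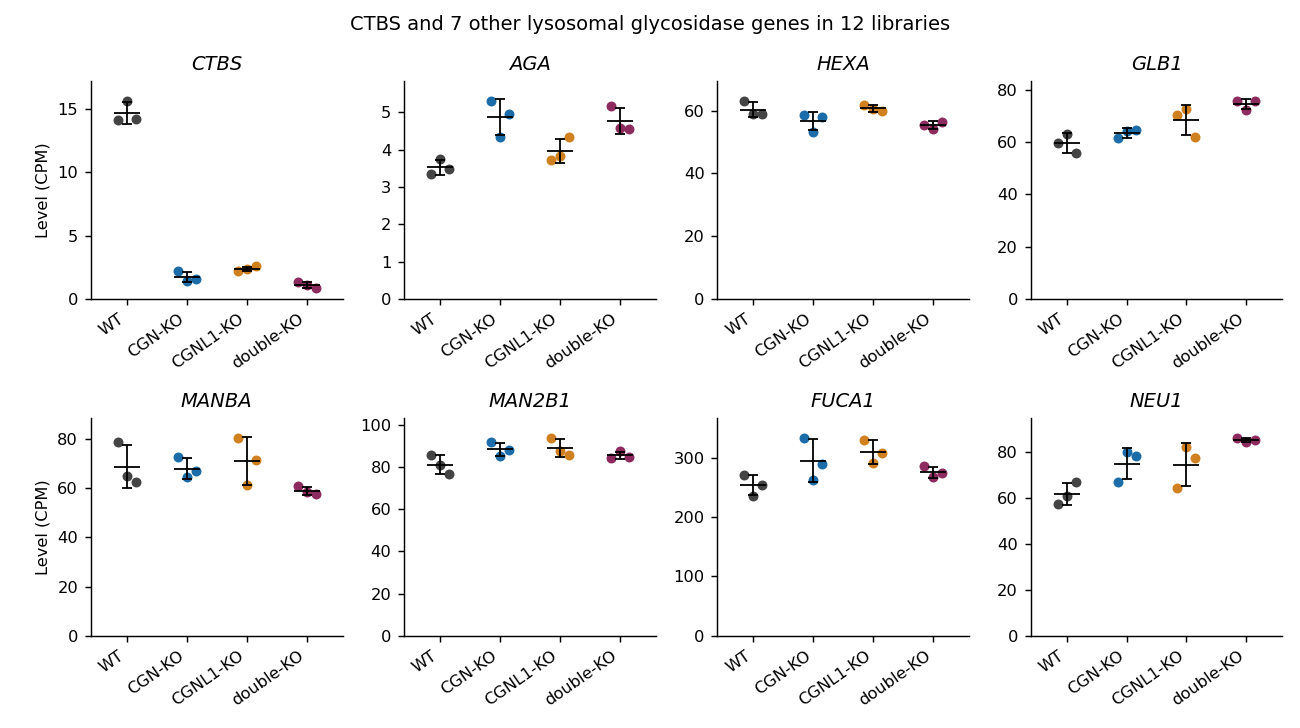
Level (CPM, linear axis from 0) of CTBS and 7 other genes of lysosomal glycan breakdown in WT, CGN-KO, CGNL1-KO, and double-KO libraries. Points are libraries, and bars give the mean ± SD of 3. CTBS is at 14.1 to 15.6 CPM in WT and at 0.872 to 2.57 CPM in the 9 KO libraries, whereas KO to WT ratios of the means of the other 7 genes stay between 0.859 and 1.38.

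The other 7 genes did not share the low level of CTBS in the KO lines. Of these 7, 2 rose in CGN-KO cells (background, 11.2% of the 12650 genes tested were higher), 1 rose in CGNL1-KO cells (background, 6.81% higher), and 3 rose in double-KO cells (background, 14.8% higher), each at an adjusted p below 0.05 (limma). None of the 7 fell in any line by limma, edgeR, or DESeq2, and the counts were 0, 0, and 0 for each tool (background, 7.87%, 3.49%, and 11.5% of all genes were lower). At an unadjusted p below 0.05, 0, 0, and 2 were lower, the latter HEXA and MANBA. No member other than CTBS passed with a 2-fold change (background, 1.31%, 0.617%, and 1.41% of genes in either direction). The ratios of KO to WT means ran from 0.938 to 1.38 in CGN-KO, from 1.01 to 1.22 in CGNL1-KO, and from 0.859 to 1.38 in double-KO cells. The median log2 difference of the 7 genes was 0.12, 0.13, and 0.12, against −0.0039, −0.0031, and −0.00036 for all genes tested. With only 7 genes, taken with results of these data known, these counts are no result about genes of lysosomal glycan breakdown as a group. The difference between CTBS and the others was not tested, because CTBS was chosen for its low values.

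**Figure D2:**
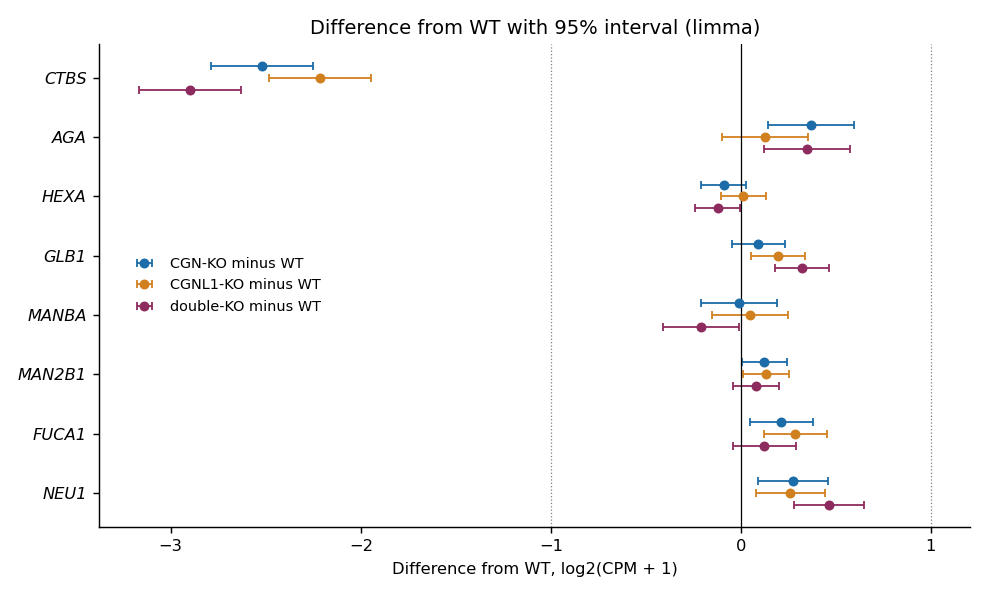
Difference from WT on the log2(CPM + 1) scale for the 8 genes in CGN-KO, CGNL1-KO, and double-KO cells, with the 95% interval from limma; the dotted lines mark a difference of 1 in either direction. CTBS lies between −2.90 and −2.21, and the other 7 genes lie between −0.21 and 0.46.

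Among the enzymes that act at the protein end of the glycan, AGA was at 3.36, 3.75, and 3.49 CPM in WT cells. It was at 5.31, 4.35, and 4.96 CPM in CGN-KO, at 3.72, 3.84, and 4.33 CPM in CGNL1-KO, and at 5.18, 4.59, and 4.55 CPM in double-KO cells. All CGN-KO and double-KO values lay above the WT values, whereas the CGNL1-KO values overlapped them. AGA rose by 0.37 ± 0.11 (log2, SE) in CGN-KO (adjusted p = 0.0224, limma) and by 0.35 ± 0.11 in double-KO cells (adjusted p = 0.0238, limma). In CGNL1-KO cells the difference was 0.13 (adjusted p = 0.531, limma), with a 95% interval from −0.10 to 0.36. The level rested on 57 to 161 reads per library. The rise in CGN-KO cells was no longer called without WT library 1, WT library 3, CGN-KO library 1, or CGN-KO library 3, without the libraries numbered 1, and with DESeq2 (adjusted p over all alternatives, 0.0181 to 0.144). The rise in double-KO cells was no longer called without WT library 1, WT library 3, or double-KO library 2, without the libraries numbered 1, and with DESeq2 (0.0216 to 0.0982). AGA, whose enzyme acts just before chitobiase, was thus higher in 2 of the 3 lines in which CTBS was low.

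NEU1 encodes the lysosomal sialidase, which takes sialic acid from the outer end of glycans. It was at 57.6, 60.9, and 67.3 CPM in WT, 67.2, 80.0, and 78.2 CPM in CGN-KO, 64.3, 82.2, and 77.5 CPM in CGNL1-KO, and 86.5, 84.8, and 85.5 CPM in double-KO cells. The double-KO values were the highest and lay closest together, and in both single-KO lines library 1 overlapped the WT values. NEU1 rose by 0.46 ± 0.086 (log2, SE) in double-KO cells (adjusted p = 0.000869, limma), a call kept under each of the 21 alternatives (0.39 to 0.52). It rose by 0.27 ± 0.086 in CGN-KO cells (adjusted p = 0.0357, limma), a call lost in 7 of the 21 alternatives (adjusted p, 0.000524 to 0.133), namely without WT library 1 or 2, CGN-KO library 2 or 3, or any one of the 3 double-KO libraries. In CGNL1-KO cells the difference of 0.26 did not pass (adjusted p = 0.0687, limma), but it did with DESeq2, in the replicate block fit, without the libraries numbered 1, and without CGN-KO library 1 or CGNL1-KO library 1 (adjusted p over all alternatives, 0.000577 to 0.221). The 6 nearest tested neighbours of NEU1 had median differences of 0.18, −0.042, and 0.19 in the 3 lines, and 2 of the 6 were higher in each line. The part of its neighbourhood in the NEU1 values was not tested.

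GLB1 encodes beta-galactosidase, which removes galactose. It was at 59.7, 63.3, and 55.8 CPM in WT and at 75.8, 72.4, and 75.8 CPM in double-KO cells, with no overlap. GLB1 rose by 0.32 ± 0.066 (log2, SE) in double-KO cells (adjusted p = 0.00185, limma), a call kept under each of the 21 alternatives (0.28 to 0.37). CGN-KO cells had 61.4, 64.4, and 64.8 CPM (difference, 0.093; adjusted p = 0.356, limma), and CGNL1-KO cells had 70.6, 72.8, and 62.0 CPM (difference, 0.20; adjusted p = 0.0758, limma). In CGNL1-KO cells the difference passed in the replicate block fit and without CGNL1-KO library 3 (adjusted p over all alternatives, 0.0236 to 0.253).

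FUCA1 encodes the lysosomal alpha-fucosidase. It was at 271, 236, and 254 CPM in WT, 334, 262, and 289 CPM in CGN-KO, 330, 291, and 308 CPM in CGNL1-KO, and 286, 268, and 275 CPM in double-KO cells. Library 1 was the highest of each genotype that has one, and only CGNL1-KO values lay wholly above the WT values. FUCA1 rose by 0.29 ± 0.078 (log2, SE) in CGNL1-KO cells (adjusted p = 0.0259, limma), a call lost without WT library 2, WT library 3, CGNL1-KO library 1, or CGNL1-KO library 3 (adjusted p over all alternatives, 0.000696 to 0.131). The differences in CGN-KO (0.21; adjusted p = 0.0681, limma) and double-KO cells (0.12; adjusted p = 0.266, limma) did not pass. Both passed in the replicate block fit and without the libraries numbered 1, a setting chosen after the values were seen. In CGN-KO cells the FUCA1 difference also passed with DESeq2 and without WT library 1, CGN-KO library 2, or CGNL1-KO library 1 (adjusted p over all alternatives, 0.0055 to 0.274). In double-KO cells the adjusted p ran from 0.0144 to 0.592 over the alternatives.

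HEXA, MANBA, and MAN2B1 did not pass in any line. HEXA encodes the alpha subunit of beta-hexosaminidase and was at 58.8 to 63.1 CPM in WT, 53.3 to 58.7 in CGN-KO, 59.8 to 61.9 in CGNL1-KO, and 54.1 to 56.5 in double-KO cells. Its differences from WT were −0.091, 0.011, and −0.12 (adjusted p = 0.281, 0.933, and 0.126, limma), and the 95% interval of the last ran from −0.24 to −0.0023. MAN2B1, the lysosomal alpha-mannosidase, was at 76.8 to 85.9 CPM in WT and at 84.5 to 94.1 CPM over the KO libraries. Its differences were 0.12, 0.13, and 0.078 (adjusted p = 0.141, 0.169, and 0.335, limma), with upper interval bounds of 0.24, 0.25, and 0.20.

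MANBA encodes beta-mannosidase, which removes the mannose next to the chitobiose core, and of the 7 genes it had the lowest difference from WT in double-KO cells. It was at 78.7, 64.9, and 62.6 CPM in WT, 72.6, 64.4, and 66.9 CPM in CGN-KO, and 80.6, 61.2, and 71.6 CPM in CGNL1-KO cells. Double-KO cells had 60.7, 58.6, and 57.7 CPM, all below the WT values. The differences from WT were −0.0099 for CGN-KO, 0.047 for CGNL1-KO, and −0.21 for double-KO cells (adjusted p = 0.960, 0.825, and 0.113, limma). The 95% interval in double-KO cells ran from −0.41 to −0.011, far from the −2.90 of CTBS, and the difference passed in 1 of 21 alternatives, that with only the 2 genotypes compared (adjusted p = 0.0312, limma).

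The members also differed in their spread between libraries. The coefficient of variation of CTBS was 5.73% for WT, 23.5% for CGN-KO, 7.69% for CGNL1-KO, and 19.9% for double-KO cells, where it rested on the fewest reads. HEXA, with 974 to 1779 reads per library, had coefficients from 1.75% to 5.11%. MANBA had 12.7% in WT and 13.7% in CGNL1-KO cells, and its highest library was number 1 in both. CTBS made up 2.23% to 2.67% of the summed CPM of the 8 genes in WT libraries and 0.136% to 0.382% in KO libraries, whereas the sum of the other 7 genes was 569 to 619 CPM in WT and 614 to 705 CPM in KO libraries.

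Comparisons between KO lines were not made in choosing CTBS, but the choice used the same KO values. The tests of CTBS between KO lines are given with this limit. CTBS was lower in double-KO than in CGNL1-KO cells by −0.68 ± 0.13 (log2, SE; 95% interval, −0.95 to −0.42; adjusted p = 0.00186, limma), and the level in double-KO cells was 46.6% of that in CGNL1-KO cells. The values of the 2 lines did not overlap, and the call was kept under each of the 21 alternatives (−1.11 to −0.58; adjusted p, 0.000241 to 0.0135). Of the 8 members, 1 was lower and 0 were higher in this comparison (background, 6.29% of genes lower and 8.12% higher). edgeR and DESeq2 gave the same counts, and at an unadjusted p below 0.05, 1 member was higher and 3 were lower.

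CTBS was also below CGN-KO levels in the 3 double-KO libraries (0.872 to 1.31 against 1.43 to 2.21 CPM), but the difference of −0.38 did not pass (95% interval, −0.65 to −0.11; adjusted p = 0.0794, limma). Between CGN-KO and CGNL1-KO cells the values overlapped, and the difference of −0.31 did not pass (95% interval, −0.58 to −0.037; adjusted p = 0.213, limma). In increasing order the lines stood as double-KO, CGN-KO, CGNL1-KO, and WT, and neither pair of neighbouring KO lines in this order differed past the test. These 2 intervals do not show that the levels were equal. The lowest values rested on 18 to 67 reads, so that counting error alone is wide.

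**Figure D3:**
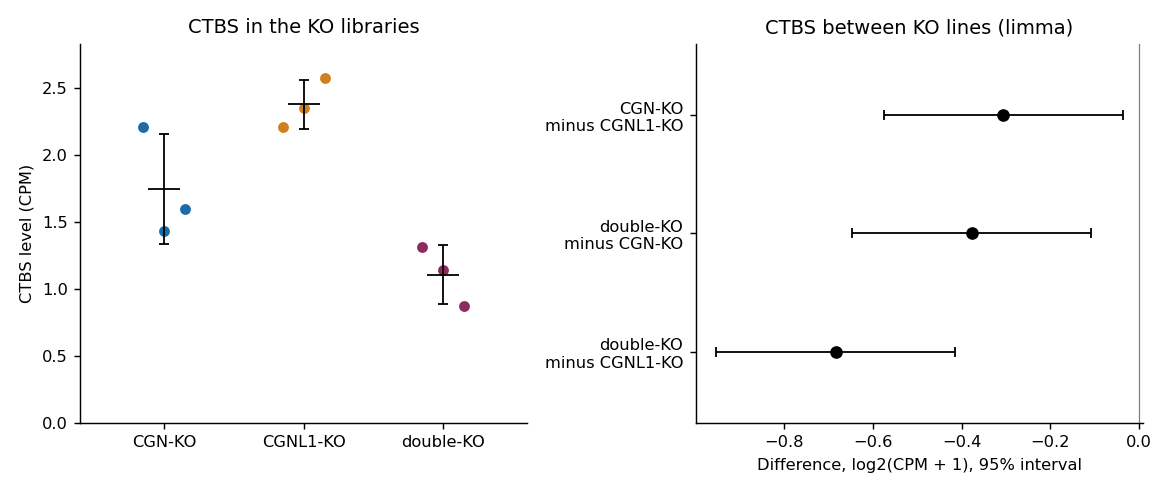
Left, CTBS level (CPM, axis from 0) in the 9 KO libraries, with points for libraries and bars for the mean ± SD of 3; right, difference of CTBS between KO lines on the log2(CPM + 1) scale with the 95% interval from limma. The double-KO values (0.872 to 1.31 CPM) lie below the CGNL1-KO values (2.21 to 2.57 CPM), and the difference of −0.68 is the one of the 3 that passed the test.

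Of the other 7 members, 1 passed a comparison between KO lines. GLB1 was higher in double-KO than in CGN-KO cells by 0.23 ± 0.066 (log2, SE; adjusted p = 0.0399, limma), where 1 of 8 members was higher and 0 were lower (background, 4.93% of genes higher and 3.91% lower). The call was lost with scaling to library totals (adjusted p = 0.0646, limma), in the replicate block fit (adjusted p = 0.0532, limma), and without any one of the 3 CGN-KO or the 3 double-KO libraries. At an unadjusted p below 0.05, 2 members were higher and 2 were lower there, and edgeR and DESeq2 gave 1 higher and 0 lower as limma did. In the comparison of CGN-KO with CGNL1-KO cells, 0 of 8 members passed by limma, edgeR, or DESeq2, and 2 had an unadjusted p below 0.05, AGA (higher) and CTBS (lower) (background, 3.09% of genes higher and 2.09% lower past the test). MANBA in double-KO against CGNL1-KO cells had a difference of −0.26 (adjusted p = 0.0799, limma), which passed without WT library 1 or CGNL1-KO library 2.

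The genes that lie beside CTBS were compared next, in the gene order of the RefSeq genes of dog assembly UU_Cfam_GSD_1.0. Its 6 nearest tested neighbours in that order, MCOLN3, SSX2IP, LOC479969, SPATA1, GNG5, and RPF1, had differences from WT of −0.37 to −0.018 in CGN-KO, −0.13 to 0.18 in CGNL1-KO, and −0.29 to 0.077 in double-KO cells. RPF1, a ribosome biogenesis gene, fell by 0.37 in CGN-KO (adjusted p = 0.0160, limma) and by 0.29 in double-KO cells (adjusted p = 0.0407, limma). GNG5, a G protein gamma subunit gene, fell by 0.19 in CGN-KO (adjusted p = 0.0295, limma) and by 0.24 in double-KO cells (adjusted p = 0.00609, limma). The other 4 neighbours did not pass in any line, and none of the 6 passed in CGNL1-KO cells. No neighbour approached the difference of CTBS.

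The calls on RPF1, and that on GNG5 in CGN-KO cells, were lost in some alternatives. In CGN-KO cells the RPF1 call was kept under 19 of 21 alternatives and lost without WT library 3 or CGN-KO library 2 (adjusted p up to 0.0864, limma). The RPF1 call in double-KO cells was kept under 16 of 21. It was lost without WT library 2 or 3, CGN-KO library 3, double-KO library 3, or the unnumbered double-KO library (up to 0.213). The GNG5 call in CGN-KO cells was lost with only the 2 genotypes compared and without WT library 2 or 3 or CGN-KO library 1 or 2 (adjusted p up to 0.121), whereas that in double-KO cells was kept under each of the 21 alternatives. SPATA1 and LOC111096427, a noncoding gene, overlap CTBS in that assembly. The library kit kept strand, per the study's methods, but the strand setting of the counting is not given in the sources used here, so it is uncertain whether reads of overlapping genes were told apart. In that assembly AGA, HEXA, GLB1 (with TMPPE), MAN2B1, and FUCA1 also overlap another gene. SPATA1 was at 95.5%, 104%, and 92.6% of its WT mean in the 3 lines. The 8 members lie on 8 different chromosomes of that assembly, so they are not neighbours of each other.

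**Figure D4:**
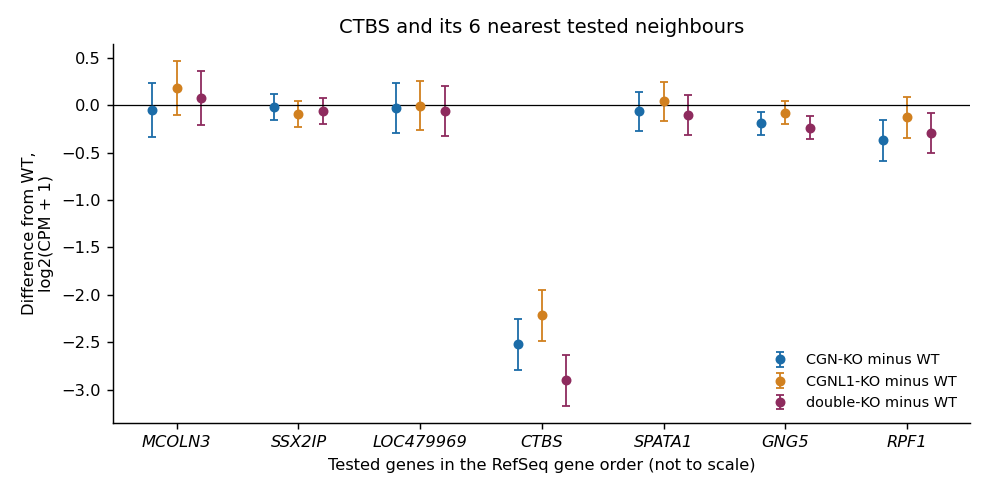
Difference from WT on the log2(CPM + 1) scale, with the 95% interval from limma, for CTBS and its 6 nearest tested neighbours in RefSeq gene order (distances not to scale). CTBS lies between −2.90 and −2.21, while the 6 neighbours lie between −0.37 and 0.18.

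Over all 12 libraries, the genes whose log2(CPM + 1) followed CTBS most closely were RPS3A (r = 0.985), SH3D19 (r = 0.979), TLN2 (r = 0.979), RBMS2 (r = 0.969), and LOC102155796 (r = 0.969), with n = 12 libraries each. As CTBS was high in WT libraries and low in all others, these r values mainly rank genes by a split of WT from KO libraries and are given as a description. RPS3A, a gene of the small ribosomal subunit, was at 855 to 907 CPM in WT and at 533 to 635 CPM in KO libraries. Ribosomal protein genes have near-identical processed copies, so its level is uncertain. SH3D19, an adaptor protein gene that lies next to RPS3A in the RefSeq order, was at 129 to 130 CPM in WT and at 78.2 to 90.2 CPM in KO libraries. The 6 neighbours of RPS3A and the 6 of SH3D19 each include the other gene. Both sets had medians of −0.25, −0.22, and −0.25 in CGN-KO, CGNL1-KO, and double-KO cells. The part of this neighbourhood in the values of RPS3A and SH3D19 was not tested. TLN2, which encodes talin-2, a link between integrins and actin, was at 35.1 to 40.4 CPM in WT and at 14.7 to 20.2 CPM in KO libraries. RBMS2, an RNA-binding protein gene, was at 60.6 to 64.3 CPM in WT and at 43.1 to 50.7 CPM in KO libraries. LOC102155796 was at 4.73 to 5.52 CPM in WT and at 1.37 to 2.80 CPM in KO libraries. None of these 5 is a lysosomal glycosidase gene of the lists.

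Other lysosomal and related genes were taken from 10 lists with 105 genes, of which 98 were listed in the table and tested. The lists also hold genes whose products are not lysosomal, such as enzymes of the cytosol, family 18 relatives, and regulators. In CGN-KO cells 28 of 98 rose and 5 fell, in CGNL1-KO cells 25 rose and 2 fell, and in double-KO cells 26 rose and 9 fell. As shares these are 28.6%, 25.5%, and 26.5% higher and 5.10%, 2.04%, and 9.18% lower, beside the background shares given above for all genes. The list medians were 0.12, 0.13, and 0.057 (log2). Of the 98 genes, 13 (13.3%) rose in all 3 lines, among them CTSD, CTSZ, ARSA, ARSB, GM2A, and ATP6AP1. Of all genes tested 3.96% did so, and the 3 comparisons share the WT libraries. Leaving out the 9 genes that share a chromosome with MYL9, MYH14, or CTNND1, and the 1 gene without a place, 24, 22, and 19 of 88 rose and 4, 2, and 8 fell. The median differences of all placed genes on those chromosomes were 0.19, 0.20, and 0.14 for that of MYL9, 0.00038, 0.0047, and 0.20 for that of MYH14, and 0.088, 0.049, and 0.30 for that of CTNND1 in CGN-KO, CGNL1-KO, and double-KO cells. None of the 8 members lies on these 3 chromosomes.

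**Figure D5:**
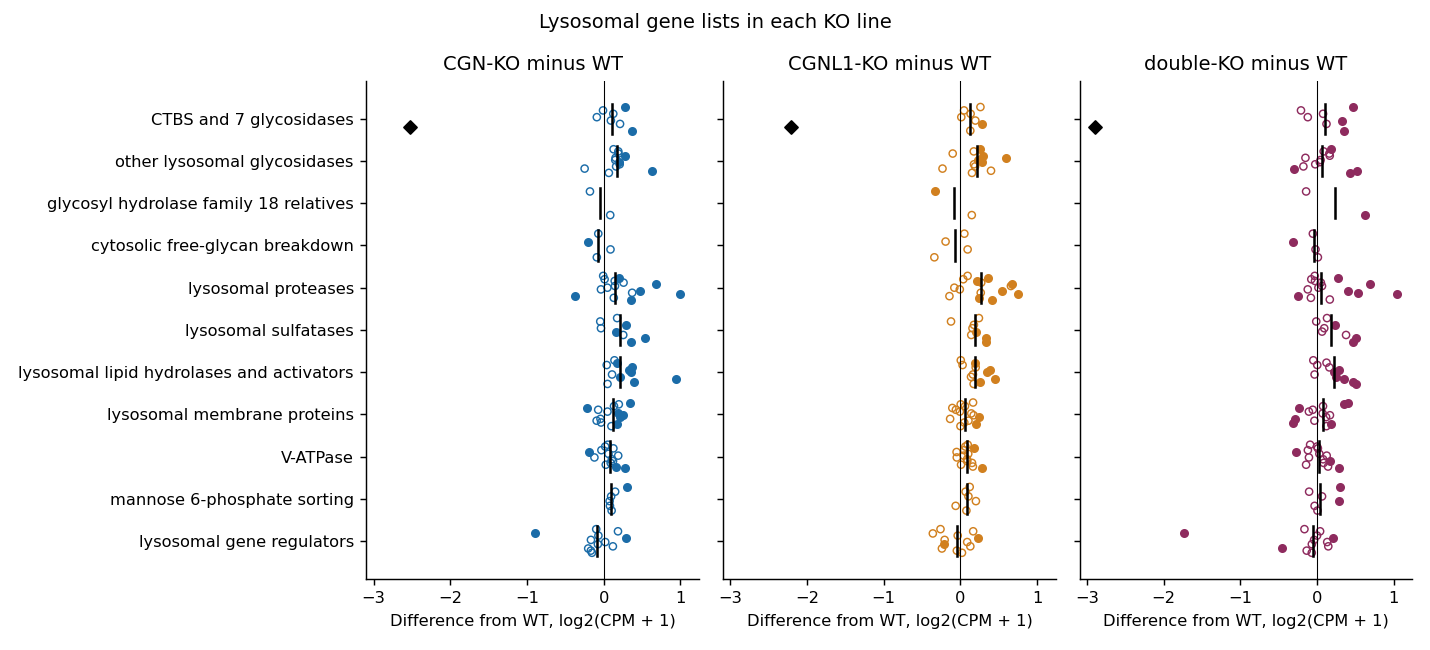
Difference from WT on the log2(CPM + 1) scale for the 8 members and 10 lists of lysosomal and related genes, 1 panel per KO line. Filled circles passed an adjusted p of 0.05 (limma), open circles did not, the black diamond is CTBS (not tested), and black lines are medians. In each panel CTBS is the lowest point, and the lowest of the list genes is RRAGD (−1.74 in double-KO cells).

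Of the other lysosomal glycosidases, 12 of 13 were tested, and 3, 5, and 3 rose in the CGN-KO, CGNL1-KO, and double-KO lines. Of all genes tested, 11.2%, 6.81%, and 14.8% were higher and 7.87%, 3.49%, and 11.5% lower in these lines. GAA, the acid alpha-glucosidase that breaks down glycogen, was at 15.0 to 16.2 CPM in WT, 21.2 to 28.3 in CGN-KO, 17.2 to 27.1 in CGNL1-KO, and 21.3 to 24.1 in double-KO cells. GAA rose by 0.63 in CGN-KO (adjusted p = 0.00268, limma) and by 0.52 in double-KO cells (adjusted p = 0.00726, limma), and had 0.40 in CGNL1-KO cells (adjusted p = 0.0647, limma). The last difference passed in the replicate block fit (adjusted p = 0.0126, limma), with DESeq2 (adjusted p = 0.0290), and without CGN-KO library 1 or CGNL1-KO library 2. HYAL1, a hyaluronidase, rose by 0.59 in CGNL1-KO cells (adjusted p = 0.0150, limma), a call lost without WT library 2 (adjusted p = 0.0914, limma), and was at 0.15 and −0.15 in the other lines. GALC, the galactosylceramidase gene, was the only one of the 12 that fell (−0.31 in double-KO cells; adjusted p = 0.0268, limma), and is named after its value was seen. That call was lost without WT library 2 or 3, double-KO library 2, or the unnumbered double-KO library (adjusted p up to 0.112).

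CTBS belongs to glycosyl hydrolase family 18, and 2 of 5 listed relatives of that family were measured. CHID1 was at 36.5 to 40.5 CPM in WT and at 55.6 to 62.2 CPM in double-KO cells, where it rose by 0.62 (adjusted p = 3.88e-06, limma). Its 6 nearest neighbours had a median of 0.46 in those cells, and it lies on the chromosome of CTNND1. In CGN-KO and CGNL1-KO cells CHID1 had 0.084 and 0.15, which did not pass. OVGP1, the oviductal glycoprotein gene, was at 14.4 to 15.7 CPM in WT and at 11.2 to 12.2 CPM in CGNL1-KO cells, where it fell by 0.33 (adjusted p = 0.0267, limma). That call was lost without WT library 2 or 3 or CGNL1-KO library 2 or 3 (adjusted p up to 0.118).

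In the list for breakdown of free glycans in the cytosol (4 genes), NGLY1, ENGASE, and MAN2C1 did not pass in any line. O-GlcNAcase (listed as MGEA5) was the only one of the 4 to pass (background, 7.87%, 3.49%, and 11.5% of all genes were lower). This enzyme removes N-acetylglucosamine from cytosolic and nuclear proteins, so it is not one of free-glycan breakdown. It fell by 0.32 in double-KO cells (adjusted p = 0.00164, limma) and by 0.20 in CGN-KO cells (adjusted p = 0.0366, limma), with −0.19 in CGNL1-KO cells (adjusted p = 0.0684, limma), where it passed in the replicate block fit (adjusted p = 0.0296, limma) and with scaling to library totals. The CGN-KO call was lost in 7 of 21 alternatives (adjusted p, 0.0111 to 0.160), among them without WT library 1 or 2, CGN-KO library 2 or 3, or double-KO library 2.

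Lysosomal proteases held the list gene with the greatest rise. CTSD, the aspartic protease cathepsin D, was at 325 to 381 CPM in WT, 667 to 817 in CGN-KO, 541 to 704 in CGNL1-KO, and 716 to 761 in double-KO cells, with every KO value above every WT value. It rose by 0.997, 0.75, and 1.05 (adjusted p = 1.61e-06, 5.55e-05, and 7.59e-07, limma). CTSD lies on the chromosome of CTNND1, and its 6 neighbours had medians of 0.31, 0.077, and 0.26. CTSZ, the carboxypeptidase cathepsin Z, was at 173 to 191 CPM in WT and at 278 to 295 CPM over the KO libraries, and rose by 0.69, 0.67, and 0.69 (adjusted p = 9.70e-08, 2.59e-07, and 8.53e-08, limma). Its 6 neighbours, on the chromosome of MYL9, had medians of 0.36, 0.43, and 0.32. Of the 15 proteases tested, 5, 7, and 5 rose and 1, 0, and 1 fell. The background shares were 11.2%, 6.81%, and 14.8% higher and 7.87%, 3.49%, and 11.5% lower.

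No gene of the sulfatase and lipid hydrolase lists fell (background, 7.87%, 3.49%, and 11.5% of all genes were lower). Lists this short make that no result about either class. The 8 genes of the sulfatase list include HGSNAT and SUMF1, which are not sulfatases. Of the 8, 4, 3, and 3 rose (background, 11.2%, 6.81%, and 14.8% higher). ARSA, arylsulfatase A, rose by 0.36, 0.33, and 0.48 (adjusted p = 0.00650, 0.0187, and 0.000600, limma). ARSB, arylsulfatase B, rose by 0.53 and 0.51 in CGN-KO and double-KO cells (adjusted p = 0.00180 and 0.00182, limma). Its rise of 0.34 in CGNL1-KO cells (adjusted p = 0.0496, limma) was lost in 13 of 21 alternatives (up to 0.202), among them without any one WT library, and the call on ARSA in that line was lost without WT library 1 or 2 or CGNL1-KO library 1 or 2 (up to 0.0762).

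Of 11 lipid hydrolases and activators, 7, 5, and 6 rose (background, 11.2%, 6.81%, and 14.8% of all genes were higher). GM2A, the activator that presents ganglioside GM2 to the hexosaminidase of which HEXA is a subunit, was at 86.7 to 103 CPM in WT and at 166 to 195 CPM in CGN-KO cells. It rose by 0.95 in CGN-KO (adjusted p = 1.19e-05, limma), by 0.45 in CGNL1-KO (adjusted p = 0.0127, limma), and by 0.36 in double-KO cells (adjusted p = 0.0222, limma). Without WT library 2 or 3 the CGNL1-KO and double-KO calls on GM2A were lost (up to 0.0636 and 0.0847), the latter also without any one double-KO library. The 6 neighbours of GM2A had medians of 0.22, 0.17, and 0.094 in CGN-KO, CGNL1-KO, and double-KO cells. ACP2, a lysosomal acid phosphatase gene, rose by 0.51 in double-KO cells (adjusted p = 0.00113, limma), where its 6 neighbours, on the chromosome of CTNND1, had a median of 0.28.

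Genes of the membrane and V-ATPase lists moved in both directions. Of all genes, 11.2%, 6.81%, and 14.8% were higher and 7.87%, 3.49%, and 11.5% lower. Of 14 lysosomal membrane genes, 5, 2, and 3 rose and 1, 0, and 3 fell, and TPCN1, an endolysosomal cation channel gene, rose by 0.34 in CGN-KO (adjusted p = 0.00840, limma) and by 0.40 in double-KO cells (adjusted p = 0.00211, limma). TMEM175, a lysosomal potassium channel gene, rose by 0.35 in double-KO cells (adjusted p = 0.00877, limma), a call lost without double-KO library 3 (0.0588). In CGN-KO, CGNL1-KO, and double-KO cells the 6 neighbours of TPCN1 had medians of 0.15, 0.078, and 0.22. Those of TMEM175 had 0.19, 0.048, and 0.23. Of 14 genes of the V-ATPase, the pump that acidifies lysosomes, 2, 2, and 2 rose and 1, 0, and 1 fell. ATP6AP1, an accessory subunit, rose by 0.27, 0.29, and 0.29 (adjusted p = 0.0175, 0.0221, and 0.00911, limma), and ATP6V1C1 fell by 0.19 and 0.27 in CGN-KO and double-KO cells (adjusted p = 0.0257 and 0.00215, limma). The single-KO calls on both V-ATPase genes were lost without WT library 1 and without CGN-KO library 2 (CGN-KO) or without WT library 1 or 2 or CGNL1-KO library 2 or 3 (ATP6AP1 in CGNL1-KO), that on ATP6AP1 in CGN-KO cells also without CGN-KO library 3, and that on ATP6V1C1 also without WT library 2.

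Of 6 genes for sorting of lysosomal enzymes, by mannose 6-phosphate or by sortilin, 1, 0, and 2 rose and none fell by limma. Beside them, 11.2%, 6.81%, and 14.8% of all genes were higher and 7.87%, 3.49%, and 11.5% lower. With only 6 genes these counts are no result about sorting. SORT1, which encodes sortilin, rose by 0.30 in CGN-KO and by 0.30 in double-KO cells (adjusted p = 0.000346 and 0.000275, limma). IGF2R, the cation-independent mannose 6-phosphate receptor gene, rose by 0.29 in double-KO cells (adjusted p = 0.00272, limma), where its neighbours on the chromosome of MYH14 had a median of 0.14.

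Among 12 regulators of lysosomal genes, 1, 1, and 1 rose and 1, 1, and 2 fell. The background shares were 11.2%, 6.81%, and 14.8% higher and 7.87%, 3.49%, and 11.5% lower. RRAGD, a Rag GTPase that takes part in nutrient signalling at the lysosome, was at 23.1 to 25.3 CPM in WT, 10.5 to 14.6 in CGN-KO, 14.4 to 23.6 in CGNL1-KO, and 5.72 to 8.04 in double-KO cells. It fell by 0.90 in CGN-KO (adjusted p = 0.000597, limma) and by 1.74 in double-KO cells (adjusted p = 6.30e-07, limma), and had −0.36 in CGNL1-KO cells (adjusted p = 0.173, limma). RRAGD was thus the list gene nearest to CTBS in the size of its fall in double-KO cells. Its 6 neighbours had medians of −0.25, −0.20, and −0.23 in CGN-KO, CGNL1-KO, and double-KO cells. The part of this neighbourhood in the RRAGD values was not tested. In CGNL1-KO cells the RRAGD difference passed in the replicate block fit (adjusted p = 0.0129, limma), without CGNL1-KO library 1, and without the libraries numbered 1 (adjusted p over all alternatives, 0.00868 to 0.481). FNIP2, which acts with folliculin on Rag GTPases, fell by 0.45 in double-KO cells (adjusted p = 0.0167, limma), a call lost without WT library 1, double-KO library 3, or the unnumbered double-KO library (up to 0.0904).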

How the data were processed

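RNASeq libraries (Illumina TruSeq HT per the labels, a stranded kit per the methods) of 12 MDCKII samples were used. Per the labels the authors aligned reads with STAR 2.7.0f to CanFam 3.1 and counted them with HTSeq 0.9.1. The deposited table holds a normalised signal per gene, CPM computed with TMM-adjusted library sizes, with no correction for gene length. Values of different genes set side by side, as for CDH16 and PDGFRA or the CTBS share of the summed CPM, therefore do not compare transcript numbers. Whole reads were recovered from the steps of the deposited CPM (100.0% of values within 0.01 of a whole number), which gave 16837532 to 30086076 reads per library. No sample column was left unused (0), 16 names in the table look like dates, and 1 double-KO column carries no replicate number.

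log2(CPM + 1) was fitted with limma 3.58.1 (R 4.3.3) on all 12 libraries without covariates for the 12650 genes that exceeded 1 CPM in 3 or more libraries, with empirical Bayes trend and Benjamini-Hochberg adjustment over all genes. A gene passed at an adjusted p below 0.05. The unit of the table was treated as CPM throughout. Alternatives were edgeR 4.0.16 and DESeq2 1.42.0 on the recovered reads, pseudocounts of 0.5 and 0.1, no filter, scaling to library totals, only the 2 genotypes compared, a replicate block, and each library left out. Leaving out the libraries numbered 1 together was added after the values were seen. These fits were tested on simulated data first. Plots were drawn with matplotlib.

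Replicate numbers were checked by the correlation of deviations from genotype means. CGN-KO and CGNL1-KO libraries of the same number deviated together (r = 0.179 to 0.632 over 3 pairs). WT libraries 1 and 2 also deviated with those of CGN-KO (0.373 and 0.318) and CGNL1-KO (0.329 and 0.371). For number 3 these values were −0.0822 and 0.011. Pairs with double-KO cells gave −0.235 to 0.0859. The main fit had no term for the number. The block fit leaves out the unnumbered double-KO library.

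Members and lists were chosen with earlier results of these data known, as were the chromosomes of MYL9, MYH14, and CTNND1. Named genes were all members, list genes past a 2-fold change, the 2 list genes per list with the greatest change among those that passed and whose KO and WT values did not overlap, the neighbours of CTBS, and the 5 genes that followed CTBS most closely. Some list genes, OGA among them, were looked up under older names. Gene order came from the RefSeq genes of UU_Cfam_GSD_1.0, a different build, which placed 11748 (92.9%) of the genes tested, so no coordinates are given. Sequences were not analysed here.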

Additional observations from a re-analysis of the deposited data

Results flagged for a closer look

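CTBS differed between KO lines in a comparison that its choice did not make, although the choice used these KO values. Its log2(CPM + 1) level differed by −0.68 between double-KO and CGNL1-KO cells (adjusted p = 0.00186, limma), with 0.872 to 1.31 CPM against 2.21 to 2.57 CPM, and lower in 3 of 3 double-KO libraries. This difference compares the 2 KO lines directly, and the WT libraries enter only through the shared estimate of spread.

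GLB1 differed by 0.23 between double-KO and CGN-KO cells (adjusted p = 0.0399, limma), with 72.4 to 75.8 CPM against 61.4 to 64.8 CPM, and higher in 3 of 3 double-KO libraries. This call was lost with scaling to library totals and in the replicate block fit. No genotype has 4 or more libraries, so single libraries were not tested as outliers.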

How the results depend on the processing

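The KO libraries held 18 to 67 reads of CTBS. On its size, edgeR gave log2 differences from WT of −3.02, −2.62, and −3.73, DESeq2 −3.03, −2.62, and −3.74, a pseudocount of 0.5 −2.77, −2.40, and −3.25, and a pseudocount of 0.1 −3.02, −2.58, and −3.63 (CGN-KO, CGNL1-KO, and double-KO cells), so that log2(CPM + 1) understates it. Leaving out single libraries gave −2.64 to −2.44, −2.26 to −2.17, and −2.97 to −2.82.

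Counts of the 7 other members that rose moved with single libraries, to 0 to 3 in CGN-KO and 0 to 2 in CGNL1-KO cells. In CGNL1-KO cells DESeq2 gave 2, and leaving out the libraries numbered 1 gave 2. With only the 2 genotypes compared, 1 fell in double-KO cells. Of the 98 list genes, those that fell in CGN-KO cells were 3 with only the 2 genotypes compared and 3 to 5 without single libraries (3 without WT library 2 or CGN-KO library 2). In CGNL1-KO cells those that rose were 16 with only the 2 genotypes compared and 13 to 30 without single libraries (13 without WT library 2), and those that fell were 4 with library totals, 0 with only the 2 genotypes compared, 7 without the libraries numbered 1, and 0 to 3 without single libraries. Of the 8 members, those higher in double-KO than in CGN-KO cells were 0 with library totals and 0 to 1 without single libraries, and 1 was lower with only the 2 genotypes compared. Against CGNL1-KO cells, 0 to 1 were higher and 1 to 2 lower without single libraries (1 higher and 2 lower without CGNL1-KO library 2, and 2 lower without WT library 1). The cause of these changes was not tested.

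In the replicate block fit, 3 of the 7 other members rose in CGNL1-KO cells, 5 list genes fell there, 0 members were higher in double-KO than in CGN-KO cells, and AGA between those lines (0.00071) and HYAL1 in double-KO cells (0.029) changed sign. Calls were gained for GLB1, NEU1, GAA, MGEA5, RRAGD, and IGF2R in CGNL1-KO cells and for FUCA1 in CGN-KO and double-KO cells, and that for GLB1 between double-KO and CGN-KO cells was lost. The other counts stayed within 1.5 times.

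Differences near 0 changed sign as follows, and none of these had passed. With library totals they were MANBA in CGN-KO (0.0023), HEXA (−0.021) and TMEM175 (−0.027) in CGNL1-KO, and MAN2B1 between CGN-KO and CGNL1-KO cells (0.035). Without the libraries numbered 1 they were MANBA in CGN-KO (0.043), TMEM175 in CGNL1-KO (−0.068), MAN2B1 (0.0039) and NEU1 (−0.012) between CGN-KO and CGNL1-KO cells, and AGA (0.031) and FUCA1 (0.0040) between double-KO and CGN-KO cells. Without single libraries the ranges were −0.073 to 0.090 (MANBA, CGN-KO), −0.0060 to 0.044 (HEXA, CGNL1-KO), −0.046 to 0.15 (MANBA, CGNL1-KO), −0.046 to 0.046 (TMEM175, CGNL1-KO), −0.16 to 0.036 (MANBA), −0.037 to 0.030 (MAN2B1), −0.17 to 0.0069 (FUCA1), and −0.090 to 0.090 (NEU1) between CGN-KO and CGNL1-KO cells, and −0.089 to 0.031 (AGA) and −0.17 to 0.0040 (FUCA1) between double-KO and CGN-KO cells.

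Over 2247 values of single genes, 100 alternatives lost a call and 38 gained one.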
